A study of Mus musculus with 6 samples.

Results

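Small nucleolar RNAs (snoRNAs) are short RNAs of the nucleolus, and 156 of the 32719 rows of these count tables carry their names. The rows were chosen by symbol alone: 99 C/D box genes (Snord), 42 H/ACA box genes (Snora), 2 Cajal body RNAs (Scarna) and 13 host genes (Snhg), which are long RNAs that carry snoRNAs in their introns. The tissue was the mouse vagal jugular-nodose ganglion, which houses the cell bodies of vagal sensory neurons. The 6 libraries form a control and a treated group of 3 each. All came from wild-type male C57BL/6J mice, and the protocol describes subcutaneous osmotic pumps that delivered PBS, or PBS with S961, for 2 weeks. S961 is a peptide that blocks the insulin receptor and was given at 10 nmol per week to the treated group. The treatment label names S961 in all 6 libraries, so the control group rests on the sample titles and the protocol. Neither the ages of the mice nor whether a library is 1 animal or a pool is given in the labels, and p-values here measure the spread between these libraries, which may be technical.

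The tissue label reads spinal cord whereas the cell labels name the ganglia. Every one of the 4 nodose, 4 jugular and 5 general neuron markers was counted in all 6 libraries. Of 6 spinal cord markers, 5 (Mnx1, Olig2, Mog, Slc32a1 and Lbx1) stayed under 10 counts in each library, and their summed level with Chat was 0.239 to 2.37 CPM (gene counts scaled to a common library total, CPM, with edgeR's TMM factors). Depth ran from 12898607 gene counts in treated 3 through 14844384 in control 3 and 17810346 in control 1 to 25749857, 27856590 and 33522486 in control 2, treated 2 and treated 1. The 5 fat cell markers together reached 420 CPM in treated 3 against 1.64 to 44.4 CPM in the other 5 libraries, the 4 macrophage markers 169 against 24.7 to 54.2 CPM, and the 4 neutrophil markers 27.9 against 0.539 to 7.49 CPM. Treated 3 was thus the library with the fewest counts and the highest level of each of these 3 lists. Its neuron markers stood apart as well: the nodose list summed to 291 CPM in treated 3 against 533 to 644 CPM in the other libraries, the jugular list to 305 against 81.2 to 235 CPM, and the general neuron list to 2950 against 3630 to 3920 CPM. The part of depth and of these cell types in the values below was not tested.

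C/D box snoRNAs guide 2'-O-methylation and H/ACA box snoRNAs guide pseudouridylation, mainly of ribosomal RNA, and a few of each kind take part in cutting the ribosomal precursor. Small Cajal body RNAs guide the same modifications on spliceosomal RNAs. Most vertebrate snoRNAs are released from introns of a host gene, so that splicing of the host precedes the trimming of the snoRNA, and each class is held by its own set of core proteins.

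The 2 guide classes are recognised by short sequence boxes, and abundant members are printed to show them. Sequences and positions are those of the GENCODE M21 annotation (GRCm38, the same assembly as mm10), written 5′ to 3′. In the C/D box members the capitals mark the C box letters TGATGA within the first 30 bases and the D box letters CTGA within the last 20 bases.

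Snord15b: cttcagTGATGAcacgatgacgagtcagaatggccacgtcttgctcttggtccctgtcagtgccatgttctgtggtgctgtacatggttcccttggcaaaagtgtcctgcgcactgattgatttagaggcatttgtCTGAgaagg
Snord17: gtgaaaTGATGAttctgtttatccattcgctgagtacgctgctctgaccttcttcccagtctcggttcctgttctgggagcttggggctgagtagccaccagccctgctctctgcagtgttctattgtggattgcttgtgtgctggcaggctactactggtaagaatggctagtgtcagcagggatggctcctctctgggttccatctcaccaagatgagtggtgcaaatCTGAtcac
Snord22: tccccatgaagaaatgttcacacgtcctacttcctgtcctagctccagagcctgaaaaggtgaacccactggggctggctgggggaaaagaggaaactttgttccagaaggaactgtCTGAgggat
Snord64: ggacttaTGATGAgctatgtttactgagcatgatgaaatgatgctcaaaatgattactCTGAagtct

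Snord15b, Snord17 and Snord22 are the C/D box members with the most counts, and Snord64 is shown because its level did not follow theirs. Snora81, Snora21 and Snora23 are the first, the third and the fourth H/ACA box members by mean level, and the sequence of the other one, Snora74a, is not printed here. In them the capitals mark the H box letters ANANNA nearest the middle and the letters ACA within the last 10 bases.

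Snora81: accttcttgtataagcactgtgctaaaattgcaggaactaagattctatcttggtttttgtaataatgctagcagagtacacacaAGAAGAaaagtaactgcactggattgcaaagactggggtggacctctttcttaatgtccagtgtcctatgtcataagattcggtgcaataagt
Snora23: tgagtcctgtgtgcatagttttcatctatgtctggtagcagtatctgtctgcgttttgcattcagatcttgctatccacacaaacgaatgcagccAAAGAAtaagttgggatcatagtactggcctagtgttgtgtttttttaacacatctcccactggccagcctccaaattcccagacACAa
Snora21: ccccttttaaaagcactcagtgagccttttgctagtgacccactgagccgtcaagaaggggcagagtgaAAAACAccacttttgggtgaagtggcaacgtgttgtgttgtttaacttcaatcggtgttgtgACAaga

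Of the 99 C/D box rows, 72 hold TGATGA, 97 hold CTGA and 70 hold both in these windows, searched on the RNA's own strand. Of the 42 H/ACA box rows, 37 hold both the H box letters and ACA. Among 4066 annotated transcripts of 60 to 250 bases that are not snoRNAs (microRNA precursors, small nuclear, miscellaneous and ribosomal RNAs), 0.0492% hold the C and D letters and 5.73% the H and ACA letters. A member without a match, such as Snord22 for the C box or Snora81 for ACA, only lacks these letters in the window. C/D box members run from 64 to 238 bases with a median of 84.0, and H/ACA box members from 121 to 205 bases with a median of 132.5, so many are shorter than the 100 bp reads and all are shorter than the 407 bp median library size given by the labels.

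The C/D box RNAs summed to 953.4, 296 and 1362 CPM in controls 1, 2 and 3 and to 399.6, 283.4 and 2624 CPM in treated 1, 2 and 3. The H/ACA box RNAs summed to 1181, 282 and 1459 CPM among controls and to 355.4, 234.7 and 2707 CPM in the treated libraries. In both classes treated 3, control 3 and control 1 were high and the other 3 libraries low, so the groups overlapped. In such bulk samples fewer cells of a type and less RNA per cell cannot be told apart. The pair of Cajal body RNAs had the same 3 libraries high, with 129.4, 39.16 and 186.3 CPM among controls and 66.77, 49.53 and 318.8 CPM in the treated libraries. The host gene sum varied least, at 1772, 1267 and 1885 CPM among controls and 1415, 1260 and 2072 CPM in the treated libraries. Snhg11 was the largest part of this sum in each library. Single host rows varied more, such as Snhg1 (12.07-fold from lowest to highest library) and Snhg12 (6.822-fold).

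**Figure D1:**
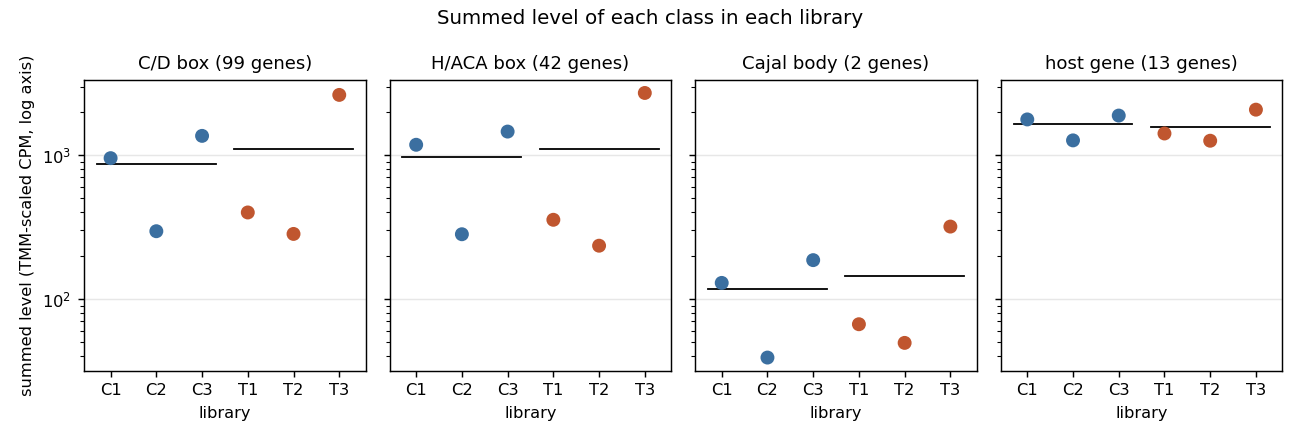
Summed TMM-scaled CPM (log axis) of the 4 classes in each library, with controls C1 to C3 in blue, treated libraries T1 to T3 in orange and group means as lines. The C/D box sum spans 283.4 to 2624 CPM and the host gene sum, of which Snhg11 is the largest part, 1260 to 2072 CPM. T3 is highest in each panel.

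Group means were close to each other beside this spread. The C/D box sum averaged 870.4 ± 537.8 CPM in controls and 1102 ± 1319 CPM in treated libraries (SD, n = 3), and the H/ACA box sum 973.8 ± 615 against 1099 ± 1394 CPM. The Cajal body sum averaged 118.3 ± 74.2 against 145 ± 150.7 CPM, and the host gene sum 1641 ± 329 against 1582 ± 431.4 CPM. From the lowest to the highest library the sums differed 9.26-fold for C/D box, 11.5-fold for H/ACA box, 8.14-fold for Cajal body and 1.65-fold for host gene rows. Within the controls alone the corresponding folds were 4.60, 5.17, 4.76 and 1.49, while the summed level of all protein-coding genes differed 1.054-fold over the 6 libraries. As a share of gene counts, the C/D box rows took from 0.0292% (95% Wilson interval 0.0286% to 0.0299%) in treated 2 to 0.256% (0.253% to 0.259%) in treated 3. Counting error, the only error such intervals cover, was therefore far smaller than the distance between libraries.

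Treated and control ganglia were compared to see how the S961 infusion relates to transcript levels. No snoRNA or host gene passed the test: of the 113 members with enough counts to be tested (58 C/D box, 40 H/ACA box, 2 Cajal body and 13 host genes), 0 passed an adjusted p of 0.05 with edgeR's quasi-likelihood test and Benjamini-Hochberg adjustment over 16019 genes. Over all genes tested 0.0% were called. At an unadjusted p under 0.05 there were 0 members, against 6.67% of all genes, and DESeq2 and limma-voom, with or without sample weights, called 0 members too. The groups separated without overlap, treated higher, for 0 members against 7.07% of all genes, and treated lower for 0 members against 7.63%. The remaining members, all but 2 of them C/D box rows, had too few counts for a test, and 12 of them had none at all.

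The median log2 fold change was 0.10 over the C/D box members tested (36 positive and 22 negative, from -0.60 to 1.24) and 0.18 over the H/ACA box members (33 positive and 7 negative, from -0.55 to 0.81). It was 0.34 over both Cajal body members and -0.02 over the host genes (6 positive and 7 negative), beside 0.02 over all genes. The sign of the box class medians is not fixed: under limma-voom they were -0.31 for C/D box and -0.61 for H/ACA box. Without treated 3 they were -1.19 and -1.67, and the Cajal body and host gene medians -0.29 and -0.27. The median standard error of a log2 fold change was 0.85 for C/D box, 1.12 for H/ACA box and 0.71 for Cajal body members, against 0.18 over all genes, so a difference of the size of these medians was not detectable in these libraries. Comparing only libraries of like depth, treated 3 lay above controls 1 and 3 by 1.18 (C/D box) and 1.04 (H/ACA box) on the log2 scale of the class sums. Treated 1 and 2 differed from control 2 by 0.21 and 0.07, and each of these depth classes holds a single library of 1 group.

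Snord15b and Snord15a guide methylation of 28S ribosomal RNA and both lie in the ribosomal protein gene Rps3. Snord15b (ENSMUSG00000064966, chr7:99479563-99479707, minus strand) had the most counts of any C/D box member, at 293, 94.7 and 402.4 CPM among controls and 130.9, 88.7 and 742.5 CPM in the treated libraries. The log2 fold change of Snord15b was 0.28 ± 1.00 (SE), at a Benjamini-Hochberg adjusted p of 0.957 in edgeR. Snord15a, which shares 98 aligned bases with it (66.2% of the longer RNA), ran at 74.9, 21.8 and 122 CPM among controls and at 31.6, 20.3 and 258.8 CPM in the treated libraries. The library order of both was the same, with the 3 libraries of fewest counts on top.

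Snord17 (ENSMUSG00000077714, chr2:144265979-144266216, minus strand, in an intron of Snx5) had 198.4, 58.6 and 282.9 CPM among controls and 81.1, 62.3 and 582.1 CPM in the treated libraries. Snord22, known for its part in 18S ribosomal RNA maturation, had 167.7, 43.9 and 230.2 CPM among controls and 59.3, 38.6 and 509 CPM in the treated libraries. Snord118, the U8 RNA that serves the processing of 5.8S and 28S ribosomal RNA and is transcribed from a promoter of its own, had 16.0, 3.35 and 22.2 CPM among controls and 4.26, 3.38 and 48.3 CPM in the treated libraries. Intron-borne and independently transcribed members thus had the same 3 libraries high. Snord21, in Rpl5, spanned 10.7 CPM (treated 2) to 120 CPM (treated 3). For these 4 RNAs the log2 fold changes of 0.42, 0.45, 0.41 and 0.22 had standard errors of 1.08, 1.19, 1.29 and 1.13.

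The C/D box members with the smallest p were low in counts. Snord82, in an intron of Ncl, the gene of the nucleolar protein nucleolin, had 19, 14 and 15 counts among controls and 13, 7 and 74 in the treated libraries. Only in treated 3 was it above the controls, and the log2 fold change was 1.24 ± 1.19 (SE). Snord2, in the translation factor gene Eif4a2, had 14, 12 and 16 counts among controls and 24, 31 and 27 in the treated libraries. On the CPM scale the Snord2 groups overlapped, since treated 1 at 0.714 CPM lay under controls 1 and 3. The log2 fold change of Snord2 was 0.73 ± 0.59 (SE), at a Benjamini-Hochberg adjusted p of 0.783 in edgeR. Snord78 had 0.860, 0.539 and 0.406 CPM among controls and 0.863, 0.557 and 1.59 CPM in the treated libraries. It lies in an exon of the long RNA Gas5, which had 23.2 to 31.0 CPM among controls and 22.9 to 41.5 CPM in the treated libraries.

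Snora81, in Eif4a2 as well, was the H/ACA box member with the most counts. Snora81 (ENSMUSG00000087935, chr16:23110756-23110933, plus strand) had 252.7, 45.2 and 281.2 CPM among controls and 61.6, 36.4 and 585.6 CPM in the treated libraries. Its highest and lowest libraries, both treated, differed 16.1-fold, and its log2 fold change between the groups was 0.24 ± 1.27 (SE). Snora23 (chr7:110046364-110046547, in an intron of the importin gene Ipo7) had 141.5, 29.4 and 156.2 CPM among controls and 30.9, 24.2 and 312.3 CPM in the treated libraries. Snora21, in an intron of Rpl23, had 129.9, 27.1 and 173.7 CPM among controls and 37.8, 23.2 and 320.9 CPM in the treated libraries. In each of these RNAs the same 3 libraries were high as in the C/D box RNAs of other host genes.

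Snora73a and Snora73b, copies of the U17 RNA that serves the cutting of the 18S precursor, lie in introns of Rcc1 and are 96.6% identical, so reads may be split between them uncertainly. Snora73a ran at 78.6, 26.2 and 104.7 CPM among controls and at 32.2, 22.2 and 167.1 CPM in the treated libraries, and Snora73b, with 85.3, 25.7 and 100.7 CPM and with 32.7, 23.1 and 162.8 CPM, stayed close to it. Snora74a, the U19 RNA, ranged from 37.3 CPM in treated 2 to 296.5 CPM in treated 3, and its log2 fold change was 0.02 ± 1.01 (SE). The H/ACA box members with the smallest p were Snora31 (log2 fold change 0.79 ± 1.12, SE) and the overlapping pair of Snora43 rows (-0.55 and -0.50). For Snora31 the edgeR Benjamini-Hochberg adjusted p was 0.877.

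The 2 Cajal body RNAs differed from each other. Scarna10, a composite guide with features of both box classes that lies in the condensin gene Ncapd2, had 129, 38.5 and 185.4 CPM among controls and 65.8, 48.7 and 318 CPM in the treated libraries. Scarna9, annotated at 70 bases in an intron of Cep295, had 0.459, 0.692 and 0.879 CPM among controls and 1.01, 0.836 and 0.795 CPM in the treated libraries. Scarna10 had the same 3 libraries high as the box classes, with control 2 lowest, and Scarna9, on 8 to 34 counts per library, did not. Their log2 fold changes of 0.29 ± 0.95 and 0.39 ± 0.48 (SE) were both within the spread of the libraries.

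**Figure D2:**
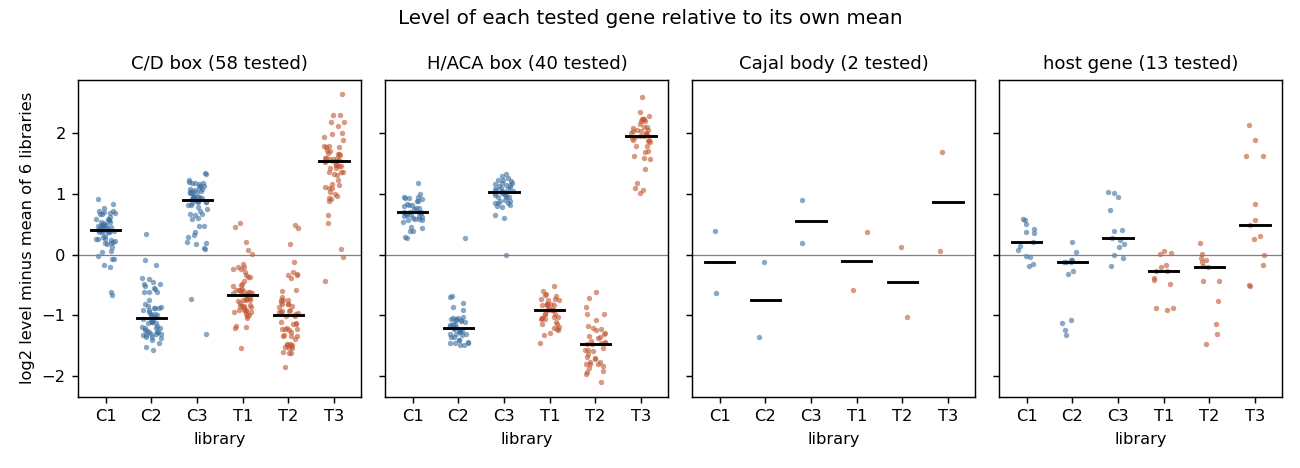
Each point is 1 tested member, plotted as its log2 level in a library minus its own mean over the 6 libraries, and the bars are class medians. C/D box and H/ACA box points sit above 0 in C1, C3 and T3 for most members and below 0 in C2, T1 and T2, while host genes scatter around 0 with a few that follow the box classes.

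The libraries of 1 group differed far more than the groups did. On the log2 scale, control 3 lay above control 2 by a median of 2.02 over C/D box, 2.19 over H/ACA box, 1.29 over Cajal body and 0.46 over host gene members, against 0.00 over all genes. Treated 3 lay above treated 2 by medians of 2.49, 3.52, 1.32 and 0.74, against -0.01 over all genes. The within-control range was larger than the treated-control difference for 57 of 58 C/D box, 40 of 40 H/ACA box, 2 of 2 Cajal body and 12 of 13 host gene members, where 71.8% of all genes met the same rule.

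At least a 2-fold excess of control 3 over control 2 was seen for 49 of 58 C/D box, 39 of 40 H/ACA box, 1 of 2 Cajal body and 5 of 13 host gene members, where 5.19% of all genes met it. For treated 3 over treated 2 the counts were 51, 40, 1 and 6, with 10.5% of all genes, and for both rules together 46, 39, 1 and 4, with 3.93% of all genes. The 3 libraries with the fewest counts all lay above the 3 with the most for 52 C/D box, 39 H/ACA box, 1 Cajal body and 5 host gene members, against 9.79% of all genes. Treated 3 was the highest library for 50 of 58 C/D box and all 40 H/ACA box members tested, against 34.4% of all genes.

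**Figure D3:**
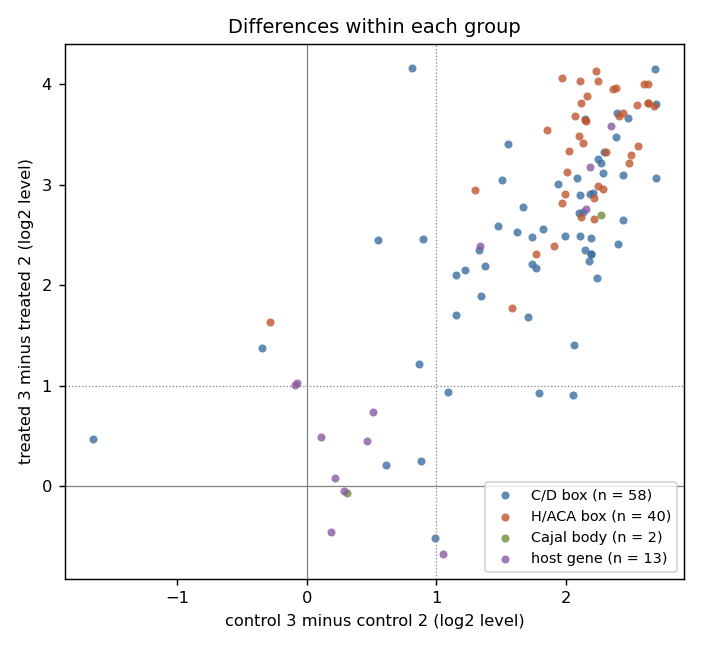
Each point is 1 tested member, with its difference between controls 3 and 2 on the x axis and between treated 3 and 2 on the y axis, both in log2 level, and dotted lines at a 2-fold difference. Above both lines lie 46 of 58 C/D box and 39 of 40 H/ACA box points, but 4 of 13 host genes.

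Across the 100 C/D box, H/ACA box and Cajal body members tested, the pair of within-group differences correlated with a Pearson r of 0.666 and a Spearman rho of 0.644. Over all genes these were 0.414 and 0.265. Genes are not independent replicates and all members share the same libraries, so these are descriptions. Longer members had higher levels, with r = 0.715 and rho = 0.657 between length and log2 mean CPM, and the excess of control 3 over control 2 rose weakly with length (r = 0.365, rho = 0.471). The classes pooled here differ in length, and the prior count of 2 draws differences of low-count members toward 0. The separate parts of length, class and level were not tested. The 12 C/D box rows of at least 100 bases held 80.9% of the class's counts and the 87 shorter rows 19.1%. Per kilobase of exon, the median level was 11.8 CPM for C/D box, 55.7 CPM for H/ACA box and 4.01 CPM for host gene rows.

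The makeup of each class moved less than its sum. Snord15b took between 28.3% and 32.8% of the C/D box level in every library, Snord17 between 19.8% and 22.2%, and Snora81 between 15.5% and 21.6% of the H/ACA box level. Some shares still split by library. Snora73b took 6.01% to 7.22% in control 1, control 3 and treated 3 and 9.1% to 9.82% in the others. Snord118 took 1.63% to 1.84% in control 1, control 3 and treated 3 and 1.06% to 1.19% in the others. The shares of Snord17 and Snord15a did not split this way. The C/D box sum divided by the H/ACA box sum was 0.808, 1.05 and 0.934 among controls and 1.12, 1.21 and 0.969 in the treated libraries. This ratio was above 1 in control 2, treated 1 and treated 2 and below 1 in the other 3.

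Of the 100 members, 14 missed a 2-fold excess of control 3 over control 2 or of treated 3 over treated 2, and 5 missed both. Those 5, singled out after their values were seen, were Snord107, Snord64, Snord45b, Snord42b and Scarna9. Snord45b differed the other way among controls, with control 3 below control 2 by a log2 difference of -1.65 on 2 and 16 counts. Snord64 had 2.81, 1.39 and 2.16 CPM among controls and 2.02, 1.85 and 2.15 CPM in the treated libraries, so its highest and lowest libraries differed 2.03-fold. Snord107 had 13, 19 and 21 counts among controls and 39, 13 and 7 in the treated libraries. Both lie on chromosome 7 beside the Snord116 copies, in the imprinted region linked to Prader-Willi syndrome, where neurons make snoRNAs from a long transcript of the paternal chromosome. Members of this region did not all behave alike, since Snord116l12 had control 1, control 3 and treated 3 highest, as the box classes did. All 14 held between 68 and 265 counts in total, so counting error is a larger part of their differences than for the abundant members.

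The Snord116 copies of the table are 17 rows of 94 bases each, and 14 of them share 1 sequence. The sequences are shown because the 3 copies that received nearly all counts differ from the shared one by 1 to 3 single bases. Capitals mark the C and D boxes, which are the same in all 4.

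Snord116l1: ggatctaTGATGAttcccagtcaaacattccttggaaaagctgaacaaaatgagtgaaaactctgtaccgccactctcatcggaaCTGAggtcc
Snord116l12: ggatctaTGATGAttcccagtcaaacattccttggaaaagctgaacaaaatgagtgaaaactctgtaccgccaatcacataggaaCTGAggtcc
Snord116l14: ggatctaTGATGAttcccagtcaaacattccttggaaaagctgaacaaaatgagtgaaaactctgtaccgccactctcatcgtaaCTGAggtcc
Snord116l9: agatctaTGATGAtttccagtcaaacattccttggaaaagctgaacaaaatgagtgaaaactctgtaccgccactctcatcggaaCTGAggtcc

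With positions counted from 1 at the 5′ end and the shared base first, Snord116l12 carries C74A, T77A and C81A, Snord116l14 carries G83T, and Snord116l9 carries G1A and C16T. The 14 rows with the shared sequence held 2 counts over all 6 libraries together, and the 3 distinct copies held 257. Snord116l12 had 35, 32 and 42 counts among controls and 38, 29 and 44 in the treated libraries, which differ in depth. Its log2 level minus its own mean was 0.186, -0.48 and 0.668 in controls and -0.594, -0.744 and 0.962 in treated libraries. Control 1, control 3 and treated 3 were thus its highest libraries. Snord116l14 had 1 to 7 and Snord116l9 had 0 to 7 counts per library. The low value of the 14 identical rows is uncertain as a level, since reads that fit several places equally well could be left uncounted, and the labels do not say how the authors treated such reads. A row with 0 counts in all libraries allows up to 3 counts, or 0.0226 CPM over the pooled libraries.

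The genes that carry the snoRNAs varied much less between libraries than the snoRNAs did. The comparison holds 38 pairs of a snoRNA row with a protein-coding host on the same strand, the snoRNA lying in an intron of it. These pairs cover 32 hosts. Snord32a, Snord34 and Snord35a enter with both Rpl13a and Gm45713. Snord33 with Gm45713 and Snord68 with Galnt2l enter too, although each lies in an exon of another host. Control 3 exceeded control 2 by a median log2 difference of 2.10 over the snoRNAs of the pairs and 0.15 over the hosts. Treated 3 exceeded treated 2 by 3.05 for the snoRNAs and by -0.02 for the hosts. The median fold from the lowest to the highest library was 9.07 for these snoRNAs and 1.35 for their hosts. The snoRNA difference was above the host difference in 36 of the 38 pairs among controls and in 38 of 38 among treated libraries.

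Ipo7, the host of Snora23, had 112, 107.9 and 119.9 CPM among controls and 121.6, 104.3 and 103 CPM in the treated libraries. Rcc1, the host of Snora73a, had 6.88, 6.12 and 7.16 CPM among controls and 6.79, 6.97 and 7.08 CPM in the treated libraries. In both hosts the 6 libraries differed by less than 1.5-fold. Rps3 and Snx5, the hosts of Snord15b and Snord17, were themselves highest in treated 3, at 240.7 CPM for Rps3 against 88.8 to 130.8 CPM elsewhere and 62.5 CPM for Snx5 against 28.9 to 39.9 CPM elsewhere. Controls 3 and 1 ranked next in both, as in their snoRNAs. Rpl17, the host of Snord58b, had 144.1, 74.05 and 185.8 CPM among controls and 87.13, 78.24 and 293.5 CPM in the treated libraries. Rps12, which holds Snora33, ran from 36.39 CPM in control 2 to 168.1 CPM in treated 3. In contrast, 29 of the 32 intron hosts differed by less than 2-fold between controls 3 and 2.

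**Figure D4:**
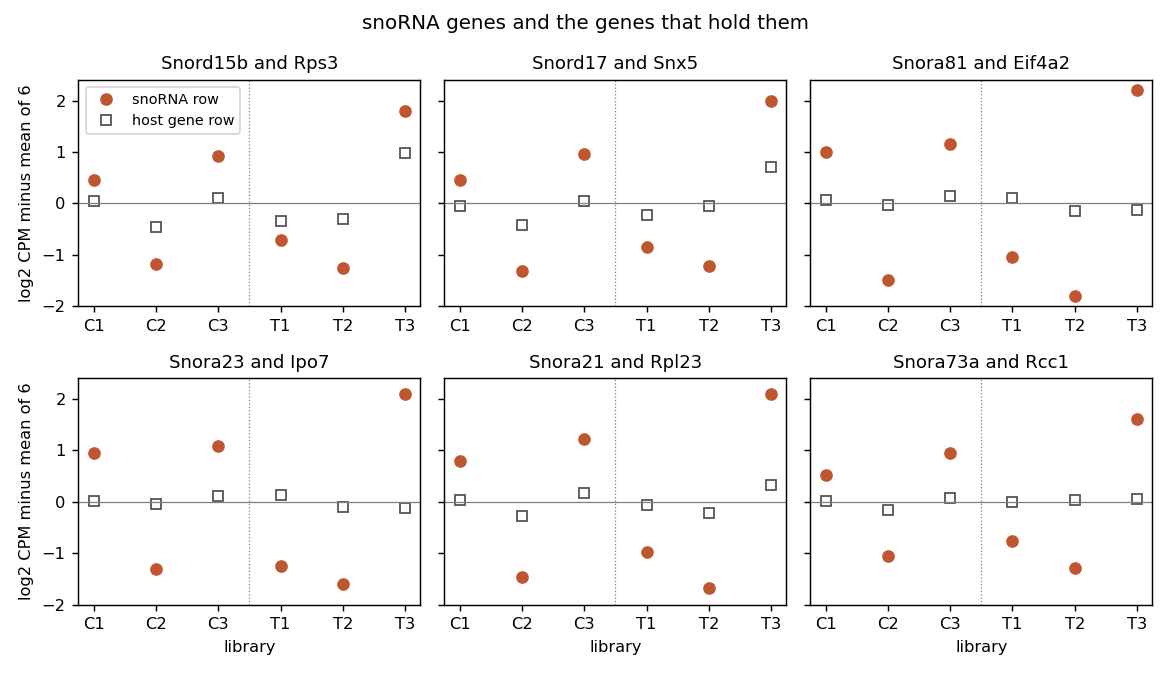
Log2 CPM minus the mean of the 6 libraries for 6 snoRNAs (filled circles) and the protein-coding genes that hold them (open squares). The snoRNAs have T3 on top in each panel and spread 7.53-fold (Snora73a) to 16.1-fold (Snora81) from lowest to highest library, against 1.17-fold (Rcc1) to 2.71-fold (Rps3) for the hosts.

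Bases of 33 snoRNA rows, Snord33 and Snord68 among them, lie in annotated exons of 28 protein-coding hosts. A read there could be counted for either gene or for both. There the medians were 2.11 for the snoRNAs and 0.34 for the hosts among controls, and 3.06 and 0.46 among treated libraries. Eif4a2, whose exons cover all 178 bases of Snora81, had 430.2, 403.2 and 457.2 CPM among controls and 443.9, 371.4 and 378.5 CPM in the treated libraries, and did not follow Snora81. In treated 3 it lay under Snora81, at 585.6 CPM, so the reads of Snora81 were not all counted for Eif4a2. Restricting the classes to rows outside host exons left the median log2 fold change at 0.10 for C/D box and 0.15 for H/ACA box.

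The host gene class splits by how many of a row's counts also appear on small RNAs in its exons. Snhg1 (ENSMUSG00000108414, chr19:8723475-8726443, plus strand) had 2990, 1197 and 3477 counts among controls and 2070, 1203 and 6358 in the treated libraries. The 8 snoRNA rows inside its annotated exons summed to 3050, 1207 and 3531 counts among controls and to 2086, 1158 and 6548 in the treated libraries, which is 102% of the host row. The Snhg1 row thus holds about as many counts as Snord22 and the other 7 snoRNAs together. Over all libraries together Snhg12 stood at 87.2% with Snora44, Snora61, Snord99 and Snora16a in its exons, Snhg20 at 88.3% with the microRNA gene Mir6516, and Snhg15 at 70.7% with Snora9. After subtraction the rest of Snhg12 was 5.04, 4.46 and 6.35 CPM among controls and 4.05, 5.50 and 4.45 CPM in the treated libraries, whereas the whole row ran from 16.7 to 113.8 CPM. The rest of Snhg20 was 7.91, 7.5 and 14.4 CPM among controls and 8.15, 8.15 and 16.6 CPM in the treated libraries. It thus stayed highest in treated 3 and control 3. For Snhg1 the subtraction gave negative values in every library but treated 2, so it is no exact measure of a host's own reads.

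**Figure D5:**
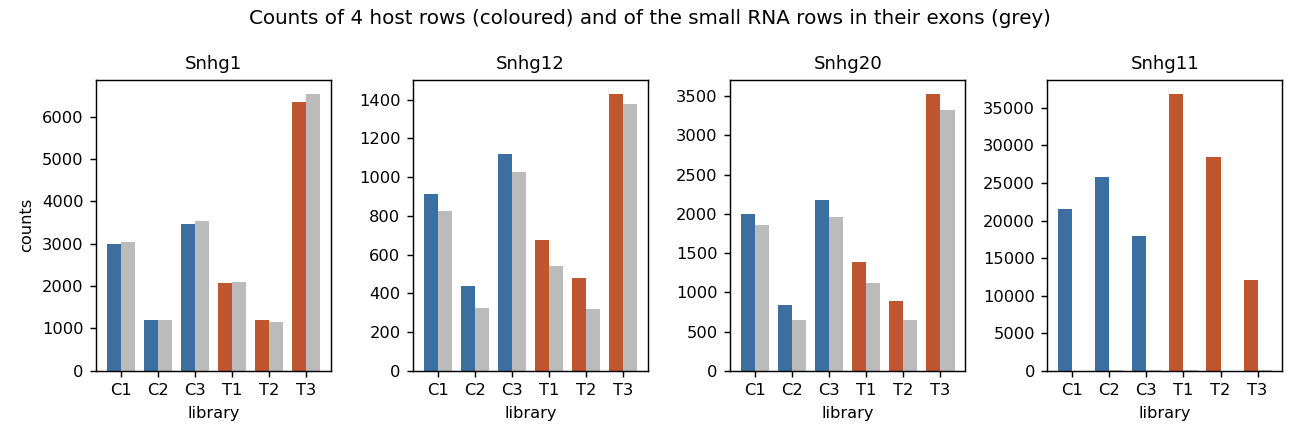
Counts of 4 host rows (blue for controls, orange for treated libraries) beside the summed counts of the small RNA rows in their exons (grey). The grey bars reach 96.3% to 103% of the Snhg1 row in each library, 67.0% (T2) to 96.1% (T3) of Snhg12 and 73.6% (T2) to 94.1% (T3) of Snhg20, and are too small to see beside Snhg11.

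Snhg11, a long RNA abundant in neurons, was the host gene with the highest level. It had 1238, 993 and 1213 CPM among controls and 1098, 992.2 and 961.5 CPM in the treated libraries, with 0.178% of its counts on the small RNA in its exons. Its log2 fold change was -0.17 ± 0.12 (SE), the smallest p of any member, and the edgeR Benjamini-Hochberg adjusted p was 0.763. Treated 1 lay above control 2, so the groups overlapped. Snhg18 had 11.9, 7.27 and 10.4 CPM among controls and 7.29, 6.48 and 10.9 CPM in the treated libraries.

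The symbol Snhg4 stands on 2 rows. The row ENSMUSG00000117694, which shares 81.0% of its exon bases with the nuclear matrix gene Matr3, had 157.3, 149.8 and 174.3 CPM among controls and 165.5, 149.8 and 158.6 CPM in the treated libraries. The row ENSMUSG00000117869 had 55, 59 and 71 counts among controls and 79, 93 and 25 in the treated libraries, although Snora74a alone, inside its annotated exons, had 1065 to 3728 counts per library. Snhg8 likewise had 47 to 88 counts against 85 to 400 for Snora24 in its exons. Exon overlaps come from GENCODE M21 and need not be those of the authors' counting, since neither its annotation release nor its strand setting is stated in the labels.

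The proteins that bind, assemble and trim snoRNAs showed no call. Of 44 genes in 6 lists, all tested, 0 rose and 0 fell with edgeR's test and Benjamini-Hochberg adjustment. Median log2 fold changes were -0.06 for the C/D core proteins, -0.01 for the H/ACA core proteins, 0.06 for Cajal body proteins (a list that also holds the nucleolar Tcof1), 0.03 for assembly factors, 0.05 for intron and snoRNA end processing and 0.01 for nonsense-mediated decay, which degrades many spliced Snhg transcripts. Tcof1, a nucleolar protein of ribosomal RNA synthesis, was at 42.7 ± 2.80 CPM in controls and 50.5 ± 5.44 CPM in treated libraries (SD, n = 3). Coil, the scaffold of the Cajal body, was at 14.0 ± 0.493 against 18.2 ± 4.70 CPM.

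Snu13, which binds the C/D motif, was at 20.4 ± 2.21 CPM in controls and 17.3 ± 0.779 CPM in treated libraries, and Nop56 at 42.0 ± 2.27 against 44.7 ± 3.69 CPM. Nop10, of the H/ACA core, had 9.81 to 12.9 CPM in controls and 8.57 to 9.47 CPM in treated libraries, and Gar1 was at 5.04 ± 0.199 against 5.29 ± 0.525 CPM. Over the 44 listed genes, every treated library lay under every control for 3 (Snu13, Nop10 and Mtrex) and above every control for 3 (Tcof1, Rpap3 and Xrn1), beside 7.63% and 7.07% of all genes. The C/D methyltransferase Fbl had 3.58 CPM in treated 3 against 4.58 to 5.19 CPM in the other 5 libraries. The H/ACA pseudouridine synthase Dkc1 ran from 21.5 to 25.5 CPM in all 6. Both enzymes thus varied by less than 1.5-fold between libraries whose class sums varied 9.26-fold and 11.5-fold.

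Among the processing genes, the exonuclease Xrn2 was at 40.0 ± 6.18 CPM in controls and 46.1 ± 6.19 CPM in treated libraries, and the nuclear RNA helicase Mtrex at 88.4 ± 3.14 against 78.3 ± 6.56 CPM. The assembly factors Ruvbl2 and Rpap3 had log2 fold changes of -0.19 ± 0.16 and 0.12 ± 0.10 (SE). Smg6, the endonuclease of nonsense-mediated decay, and Smg8 had log2 fold changes of -0.16 ± 0.13 and -0.20 ± 0.18 (SE). None of these passed the edgeR test.

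RNAs of other classes had the same 3 libraries high in their sums. The 1365 snoRNA rows without such a symbol summed to 1583, 496.8 and 2001 CPM among controls and to 640.2, 455.6 and 3411 CPM in the treated libraries. Of the 160 of them with enough counts to be tested, 136 were higher in each of the 3 libraries with fewest counts than in any other, or 85% against 89.7% of C/D box and 97.5% of H/ACA box members. Small nuclear RNAs summed to 1870, 430.7 and 1980 CPM among controls and to 598.9, 400.9 and 4575 CPM in the treated libraries, and 40 of the 62 tested (64.5%) had these 3 libraries on top. Rmrp, the RNA of the enzyme RNase MRP that cuts ribosomal precursor, had 1937, 616.7 and 2440 CPM among controls and 760.4, 573.1 and 4525 CPM in the treated libraries, with a log2 fold change of 0.23 ± 0.98 (SE). Terc, the telomerase RNA and an H/ACA RNA by structure, had 15, 9 and 8 counts among controls and 6, 10 and 9 in the treated libraries. High sums in these 3 libraries were therefore not limited to the named snoRNAs.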

How the data were processed

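Per the labels' protocols, the 3 control and 3 treated libraries were each prepared from roughly 6 ng RNA by a stranded total RNA method for low input and read at 100 bp. RNA integrity numbers lay between 6.6 and 9.1 in the study. The deposited values are raw counts of exonic reads per gene, with 1 file per library. The submitters' processing notes name bcl2fastq 2.20, STAR 2.7.7a, DESeq2, edgeR and mm10. Which program did the counting, with which annotation release and strand setting, is not given in the sources used here. Summed over genes, counts were 1.20% to 1.35% above the number of uniquely overlapping reads that each file states.

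The model was edgeR 4.0.16 under R 4.3.3 with these settings: filterByExpr with a minimum count of 10, TMM scaling, robust quasi-likelihood F test, and Benjamini-Hochberg adjustment over 16019 genes at a threshold of 0.05. Dividing a log2 fold change by the root of its F statistic gave its standard error. Expression is given in CPM on TMM-scaled library sizes, and log2 levels of single libraries carry a prior count of 2. All 156 members and 32663 of 32719 rows matched GENCODE M21, which gave positions, exons and sequences. The replicate numbers of the labels were checked as pairs: correlations of same-numbered libraries' deviations were 0.01, 0.56 and 0.49. Controls 2 and 3 thus correlated best with their own number, and these values do not settle whether the libraries are paired. The main comparison is unpaired because the labels state no pairing, and a replicate block was run as an alternative. Class sums include every row, also the pair of Snora16a rows with identical counts.

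Members, classes and protein lists were chosen with earlier results of these data known. Named in each class were the 6 members with the highest mean CPM (both Cajal body members) and the 3 with the smallest p, and in each protein list the 2 with the smallest p. Fbl, Dkc1, Xrn1, Gas5, Ipo7, Rcc1, Snx5, Rpl23, Rps3, Rpl17, Rps12 and the members that missed a 2-fold excess were named after their values were seen. Alternatives were other scalings, other low-count filters, DESeq2 1.42.0, limma-voom (limma 3.58.1) with and without sample weights, a replicate block, each library left out and, chosen after seeing the data, each locus counted once and only snoRNAs outside host exons. The fit was tested on simulated data.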

Additional observations from a re-analysis of the deposited data

How the results depend on the processing

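Members called stayed at 0 under every alternative run, while the count over all genes was 26 without the low-count filter, 89 with the DESeq2 Wald test and 8 with limma-voom and sample weights. With each library left out it ran from 0 to 9, with 7 calls without treated replicate 1 and 9 without treated replicate 3. With the replicate number as a block, edgeR called 1 gene and 0 members. Controls 2 and 3 correlated best with their own numbers (0.564 and 0.488). Control 1 correlated weakly with treated 3 (0.125) and with its own number (0.014). Over the libraries left out in turn, the log2 ratio of the class sums ran from -1.35 to 0.82 (C/D box), -1.72 to 0.65 (H/ACA box) and -1.02 to 0.78 (Cajal body), and the median log2 fold change from -1.19 to 0.57 (C/D box) and -1.67 to 0.65 (H/ACA box). The lowest value of each came without treated 3. With sample weights in limma-voom the H/ACA box median was -1.43. Directions of all 27 named member results held under the other scalings and DESeq2, as did those of the 19 that passed the filter at 5 CPM, and no member's call changed. Under limma-voom the log2 fold change turned negative for these RNAs, with values of Snord15b -0.10, Snord17 -0.05, Snord22 -0.21, Snord15a -0.22, Snord21 -0.52, Snord118 -0.55, Snord82 -0.52, Snora81 -0.46, Snora74a -0.41, Snora21 -0.50, Snora23 -0.64, Snora73a -0.42, Snora73b -0.41, Snora31 -0.26, Snhg1 -0.19, Snhg20 -0.28, Snhg12 -0.43 and Rmrp -0.14. With sample weights it was Snord15b -1.08, Snord17 -1.07, Snord22 -1.38, Snord15a -1.24, Snord21 -1.37, Snord118 -1.43, Snord82 -1.36, Snora81 -1.80, Snora74a -1.34, Snora21 -1.65, Snora23 -1.76, Snora73a -1.23, Snora73b -1.23, Snora31 -0.98, Scarna10 -0.84, Snhg1 -1.33, Snhg20 -1.25, Snhg12 -1.15, Gar1 -0.0035 and Rmrp -1.11. With the replicate block it was Snord15b -0.12, Snord17 -0.04, Snord22 -0.17, Snord15a -0.08, Snord21 -0.29, Snord118 -0.22, Snora81 -0.42, Snora74a -0.34, Snora21 -0.36, Snora23 -0.47, Snora73a -0.28, Snora73b -0.27, Snhg1 -0.16, Snhg20 -0.19, Snhg12 -0.26 and Rmrp -0.18. Without the low-count filter it was Snora74a -0.02 and Snora73b -0.0021. With each library left out, the log2 fold change ranged as follows: Snord15b -1.26 to 0.72, Snord17 -1.32 to 0.90, Snord22 -1.58 to 0.93, Snord15a -1.48 to 1.09, Snord21 -1.62 to 0.79, Snord118 -1.83 to 0.92, Snord82 -1.43 to 1.78, Snora81 -1.97 to 0.72, Snora74a -1.53 to 0.47, Snora21 -1.84 to 0.69, Snora23 -1.97 to 0.63, Snora73a -1.35 to 0.49, Snora73b -1.33 to 0.45, Snora31 -1.37 to 1.27, Scarna10 -1.03 to 0.77, Snhg1 -1.54 to 0.89, Snhg4 (ENSMUSG00000117694) -0.08 to 0.04, Snhg20 -1.43 to 0.70, Snhg12 -1.38 to 0.52, Gar1 -0.01 to 0.10 and Rmrp -1.32 to 0.65. The cause of these turns was not tested.

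Depth ran from 12898607 to 33522486 gene counts with 3 libraries a group, and the median standard error was 0.85 (C/D box) and 1.12 (H/ACA box) on the log2 scale, so changes of the size of the class medians were not detectable. Rows with few counts, identical copies and bases shared with host exons limit what single members show.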
